A study of Homo sapiens with 3 samples.

Results

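The genes described here encode the subunits of RNA polymerase II and III, the Mediator coactivator, TFIID with the related TAF proteins, and the general factors of the TFII and TFIII series. They were chosen by gene symbol (POLR2 and POLR3 subunits, numbered MED genes, numbered TAF genes except TAF1D, and GTF2 and GTF3 genes) among genes covered by a probe set that lists 1 symbol. The rule found 92 of 18417 named genes, of which 89 passed a level filter. RNA came from H9, a widely used line of human embryonic stem cells, grown so that it stayed pluripotent. The sources were polysome-bound RNA, polysome-unbound RNA and total RNA, and each was measured on 1 Affymetrix gene array. No replicate check on any difference is therefore possible, no p-value is given, and the number of arrays limits the precision.

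RNA polymerase II transcribes the protein-coding genes of the nucleus, and RNA polymerase III makes transfer RNAs and other small RNAs. TFIID recognises core promoters, TFIIA to TFIIH position the polymerase and open the DNA there, and Mediator carries signals from activators to the polymerase. TFIIIA and TFIIIC bind the promoters of polymerase III genes. All members are themselves made from mRNAs, and polysome-bound RNA is the ribosome-loaded part of the cell's RNA. The comparison of the pools places each of these mRNAs relative to other genes. It does not give the share of an mRNA that lay on polysomes.

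Levels are log2 values as deposited, and background on each array was set at the 95th percentile of 483 genes of sensory and barrier tissues (defensins, keratin-associated proteins, taste and olfactory receptors). That line lay at 4.40 on the bound, 3.56 on the unbound and 3.76 on the total RNA array. Above it were 89, 89 and 88 of the 92 members, beside 64.9%, 63.2% and 63.6% of all 18417 genes. The labelled cell type was checked in total RNA, where 17 of 19 measured stem cell markers were above background, led by LIN28A at 11.10. Of the marker lists of other cells, 10 of 13 germ layer genes, 6 of 9 trophoblast and amnion genes and 8 of 10 fibroblast genes were also above it. Their highest genes were KDR (8.81), TFAP2C (7.08) and VIM (10.18), and among the fibroblast genes COL1A2 followed at 10.11. Because 63.6% of all genes were above the background line in total RNA, that line separates the marker lists little. With the 99th percentile as the line, 16, 3, 4 and 6 genes of these lists remained above. The arrays hold bulk RNA, so a difference spread over all cells and one confined to some of them cannot be told apart.

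The members at or below background on all 3 arrays were TAF1L and TAF7L, germ cell relatives of TAF1 and TAF7, and MED26, a Mediator subunit that recruits elongation factors. They failed the filter and get no difference. MED19 was above background in bound (4.54) and unbound RNA (3.804) but not in total RNA (3.54). A further 11 symbols that fit the rule lie only on probe sets shared with other genes and are not named for a value, among them TAF9, GTF2H2, GTF2A1L and GTF2IRD2. MED6 and MED25 were not analysed here. POLR2J has near-identical copies that share probe sets, so its own values are uncertain.

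As deposited, 85 of the 89 members were higher in bound than in unbound RNA and 4 were lower (4.49%), while 6.23% of all 12063 genes past the filter were lower. The bound array was brighter in general, its median over those genes being 1.26 above that of the unbound array. Differences are therefore given below as relative differences, which subtract this offset, or the offset of 1.03 for bound minus total and -0.23 for unbound minus total. For bound minus unbound, a relative difference between -1.26 and 0 is positive as deposited. A member counts as apart at a relative difference of 1, which is 2-fold.

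By this measure 4 of 89 members (4.49%) lay 2-fold or more above unbound RNA in the bound pool, against 6.35% of all genes, and 4 (4.49%) lay 2-fold or more below it, against 9.91%. The median relative difference of the members was 0.05, with an SD of 0.67 across members, against -0.07 and an SD of 0.80 across all genes. As deposited the members 2-fold apart split 63 higher and 0 lower, beside 61.4% and 1.56% of all genes. Quantile normalization gave 11 higher (12.4%, against 10.8% of all genes) and 4 lower (4.49%, against 7.29%). Removal of the trend with level by lowess gave 3 and 4, beside 6.37% and 9.33% of all genes.

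The highest member was MED13L, a paralog of the Mediator subunit that ties the kinase module to the core. Its level was 10.30 in bound, 7.46 in unbound and 8.56 in total RNA, a relative difference between bound and unbound of 1.58. GTF3C1, the largest TFIIIC subunit, which touches the internal promoter of transfer RNA genes, had 8.02, 5.45 and 7.80 on the same arrays and a relative difference of 1.31. For both genes the unbound array was the low one.

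MED1, the Mediator subunit that nuclear receptors contact, had levels of 8.72 in bound, 6.30 in unbound and 7.99 in total RNA, with a relative difference of 1.16. POLR2C, an assembly subunit of polymerase II, followed with 8.66, 6.37 and 7.56, and 1.02. As deposited these 4 genes differed by 2.29 to 2.85 on the log2 scale. That they were 2-fold apart there too follows from the offset of 1.26 and is no separate check. POLR2C came to 0.96 after lowess and was then not 2-fold apart.

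At the other end stood TAF10, a histone-fold protein shared by TFIID and the SAGA coactivator. TAF10 had a level of 9.01 in bound, 9.69 in unbound and 8.80 in total RNA, and a relative difference of -1.95 (3.85-fold lower in bound RNA). GTF3A, the zinc finger protein TFIIIA that starts transcription of a small ribosomal RNA by polymerase III, had 6.88, 7.21 and 6.62, with -1.59. In both cases the unbound array was the brightest of the 3, although it was the array with the lowest median over all genes.

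GTF3C3, another TFIIIC subunit, had levels of 8.79 in bound, 9.01 in unbound and 9.003 in total RNA and a relative difference of -1.48. MED7, of the Mediator middle module, had 7.18, 7.33 and 6.54, with -1.42. TAF10, GTF3A, GTF3C3 and MED7 were also the 4 members lower in bound RNA as deposited, by log2 differences of -0.68, -0.33, -0.22 and -0.15. They lay beyond 2-fold after centring, quantile normalization and lowess, and not as deposited. POLR2H (-0.996) and GTF2A2 (0.99) fell just short of 2-fold.

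**Figure D1:**
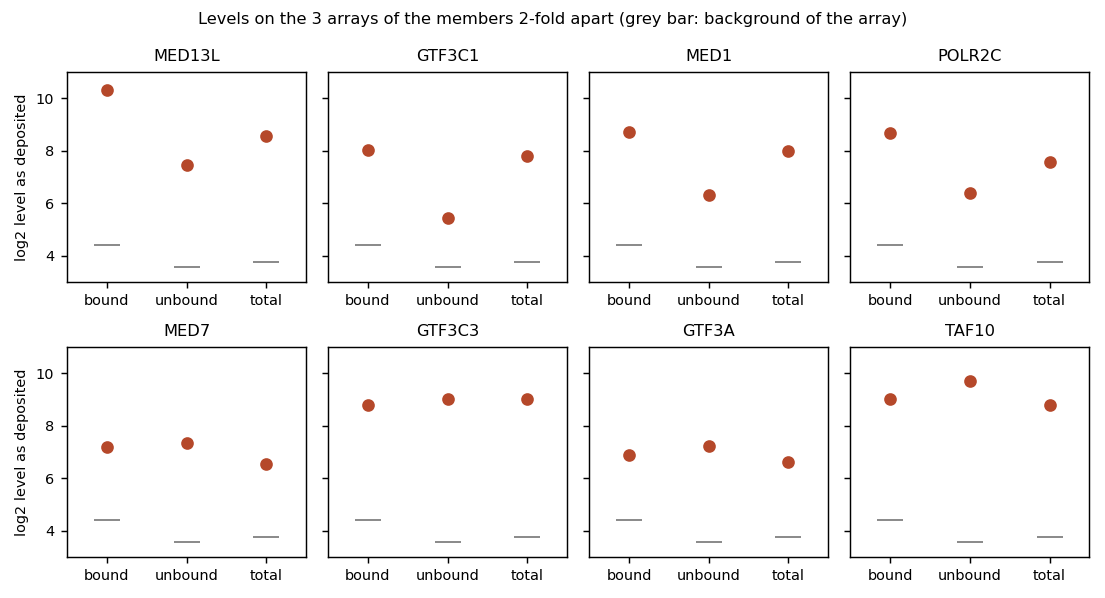
Log2 levels as deposited (y axis) on the bound, unbound and total RNA arrays (x axis) for the 8 members 2-fold apart between bound and unbound RNA after centring, with the background line of each array as a grey bar. In the upper row (MED13L, GTF3C1, MED1, POLR2C) the unbound point is the lowest, and in the lower row (MED7, GTF3C3, GTF3A, TAF10) it is as high as the other points or higher.

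The sequence around the annotated transcription start was examined because mRNAs that begin with a C followed by at least 4 pyrimidines (C or T) are the class known for leaving polysomes when growth signals fall. RefSeq start windows (build GRCh38.p14) were found for 71 of the 89 members, and some genes have several starts. The windows of the 8 members 2-fold apart are shown first, then those of the members with such a pyrimidine start. Each gives 20 bases before and 20 from the start, 5′ to 3′ on the gene's strand, with the first 5 transcribed bases in capitals.
MED13L, chr12:116277674-116277713, minus strand: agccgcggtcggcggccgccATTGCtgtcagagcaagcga
GTF3C1, chr16:27549894-27549933, minus strand: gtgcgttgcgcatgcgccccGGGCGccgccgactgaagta
MED1, chr17:39451244-39451283, minus strand: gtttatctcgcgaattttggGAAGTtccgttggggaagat
POLR2C, chr16:57462659-57462698, plus strand: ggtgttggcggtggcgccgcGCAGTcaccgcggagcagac
MED7, upstream start, chr5:157142846-157142885, minus strand: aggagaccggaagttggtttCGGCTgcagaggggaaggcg
MED7, downstream start, chr5:157142756-157142795, minus strand: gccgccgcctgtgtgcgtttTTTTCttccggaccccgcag
GTF3C3, chr2:196799664-196799703, minus strand: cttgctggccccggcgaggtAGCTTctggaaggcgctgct
GTF3A, chr13:27424599-27424638, plus strand: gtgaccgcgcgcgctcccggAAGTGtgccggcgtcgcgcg
TAF10, chr11:6612197-6612236, minus strand: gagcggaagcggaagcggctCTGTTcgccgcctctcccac
GTF2A2, chr15:59657286-59657325, minus strand: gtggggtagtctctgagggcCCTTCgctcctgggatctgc
GTF3C4, chr9:132670015-132670054, plus strand: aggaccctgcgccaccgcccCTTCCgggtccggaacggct
TAF1B, chr2:9843454-9843493, plus strand: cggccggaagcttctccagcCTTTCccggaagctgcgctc
TAF9B, chrX:78139631-78139670, minus strand: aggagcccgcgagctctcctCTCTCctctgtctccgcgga
GTF2F1, chr19:6393145-6393184, minus strand: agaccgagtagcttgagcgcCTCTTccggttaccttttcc

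Of the 71 members with a window, 5 (7.04%) had a pyrimidine start at 1 of their annotated starts, close to the 7.46% of 9602 protein-coding genes past the filter. The motif was found at 4.07% of all 35116 windows. Over all genes, the 716 with a pyrimidine start had a median relative difference of -0.40 and 26.4% of them were 2-fold lower in bound RNA, against -0.01 and 7.35% of the other 8886. None of the 5 members was 2-fold apart, from GTF2A2 (0.99), GTF3C4 (0.56) and TAF1B (0.46) to TAF9B (-0.38) and GTF2F1 (-0.77). TAF10, GTF3A, GTF3C3 and MED7, the members 2-fold lower in bound RNA, had no such start in these windows. Of 48 ribosomal protein genes, 12 had no such start either, and all 12 were 2-fold lower in bound RNA (median -2.55). The 36 with a pyrimidine start were all 2-fold lower too (median -2.65). No conclusion is therefore drawn from a start missing in these windows. The downstream start of MED7 opens a run of 9 pyrimidines with a T and does not meet the definition. Annotated starts need not be those used in H9 cells.

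Among the 8 measured subunits found only in polymerase II, the median relative difference of bound minus unbound was 0.17, from POLR2J (-0.26) to POLR2C (1.02). POLR2A, the catalytic subunit whose repeated tail is phosphorylated during transcription, had a level of 8.66 in bound, 6.77 in unbound and 8.28 in total RNA (relative difference 0.63). POLR2B, the second catalytic subunit, had 9.99, 8.71 and 10.30, with a bound minus unbound value of 0.01. As deposited, total RNA was the brightest source for POLR2B and for 3 other members (POLR3B, POLR3G and TAF5). Unbound RNA was the brightest for 4 (TAF10, GTF3A, GTF3C3 and MED7) and bound RNA for the remaining 81. This count was not made over all genes. The bound array's median over them was 1.26 above the unbound and 1.03 above the total RNA array, so the 81 are not read as a trait of the members.

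The 5 subunits shared by polymerases I, II and III were split, with POLR2H at -0.996 and POLR2K at -0.62, against POLR2E at 0.85, POLR2L at 0.38 and POLR2F at 0.19. POLR2H had levels of 9.64 in bound, 9.37 in unbound and 8.97 in total RNA, and POLR2E had 9.57, 7.46 and 8.35. The unbound array was above the total RNA array for POLR2H and below it for POLR2E.

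Polymerase III subunits had a median of -0.22, and 6 of 9 were below 0, beside 6493 of all 12063 genes past the filter. The lowest was POLR3B, the second largest subunit (-0.86), and the highest POLR3E (0.69). POLR3A, the catalytic subunit, stood at 0.23. POLR3G, a subunit known to be abundant in pluripotent cells, had -0.43 and its paralog POLR3GL, known from differentiated cells, -0.13. None of the 9 was 2-fold apart between the pools.

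All 4 MED genes of the Mediator kinase module, which reversibly caps the complex, were on the bound side, as were 5570 of all 12063 genes. These 4 had a median of 0.94 and a range from MED12 (0.72) to MED13L (1.58). CDK19 (-0.62), a kinase of the module, and its cyclin CCNC (-0.25), which the symbol rule does not take, were below 0. CDK8, the module's other kinase, was not analysed here. MED12 had a level of 8.20 in bound, 6.21 in unbound and 7.11 in total RNA. MED13 had 9.92, 7.77 and 8.49 (relative difference 0.89), and MED12L had 8.19, 5.95 and 6.23 (0.98). Only MED13L was 2-fold apart after centring, while quantile normalization put MED13 (1.18) and MED12L (1.13) past 2-fold as well.

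The remaining Mediator modules held members on both sides. Head subunits had a median of -0.21, from MED8 (-0.85) to MED20 (0.86), and 6 of 8 were below 0, beside 6493 of all 12063 genes. Middle subunits with the scaffold MED14 (0.34) had a median of -0.22, from MED7 to MED1, the widest range of the Mediator modules. That median turned to 0.08 with the level filter at the 99th percentile of background. Tail subunits, which many activators contact, had a median of 0.14, from MED15 (-0.67) to MED24 (0.86).

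TFIID subunits had a median of 0.19 over 12 genes. TAF10 stood apart from the other TFIID members, which ran from TAF7 (-0.79) to TAF3 (0.79), the subunit that reads a methyl mark on promoter histones. TAF1, the largest TFIID subunit, had a level of 7.67 in bound, 5.84 in unbound and 6.22 in total RNA, with 0.57. The 8 paralogs and TAFs of other complexes that passed the filter lay between TAF6L (-0.59), a SAGA subunit, and TAF1B (0.46), which serves polymerase I. TAF15, an RNA-binding protein, had 9.44, 8.16 and 9.03 on the same arrays and a relative difference of 0.02.

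Groups of general factors of polymerase II had median relative differences near 0, with single genes on both sides. Over 7 genes of TFIIA, TFIIB, TFIIE and TFIIF the median was 0.01, with the TFIIF subunit GTF2F1 lowest (-0.77) and the TFIIA subunit GTF2A2 highest (0.99). GTF2B, the single protein that makes up TFIIB, had 8.24 in bound, 7.48 in unbound and 7.71 in total RNA (relative difference -0.51). TFIIH had a median of -0.01 over 4 genes, from GTF2H1 (-0.15) to the small subunit GTF2H5 (0.95). The TFII-I family members GTF2IRD1 (-0.26) and GTF2I (0.12) closed this group. The 3 probe sets of GTF2H4 and the pair of TAF9B held identical values, so each gives a single measurement.

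The widest spread was in TFIIIA and TFIIIC, with an SD of 1.09 across 7 genes. GTF3C1 and GTF3C3, subunits of one complex, differed in opposite directions (1.31 and -1.48), and GTF3C2 (0.58), GTF3C4 (0.56), GTF3C6 (0.30) and GTF3C5 (0.05) lay between them. Relative to total RNA, GTF3C1 was low in the unbound pool (-2.12) and less so in the bound pool (-0.81), while GTF3C3 was low in the bound pool (-1.25) and not in the unbound one (0.24).

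**Figure D2:**
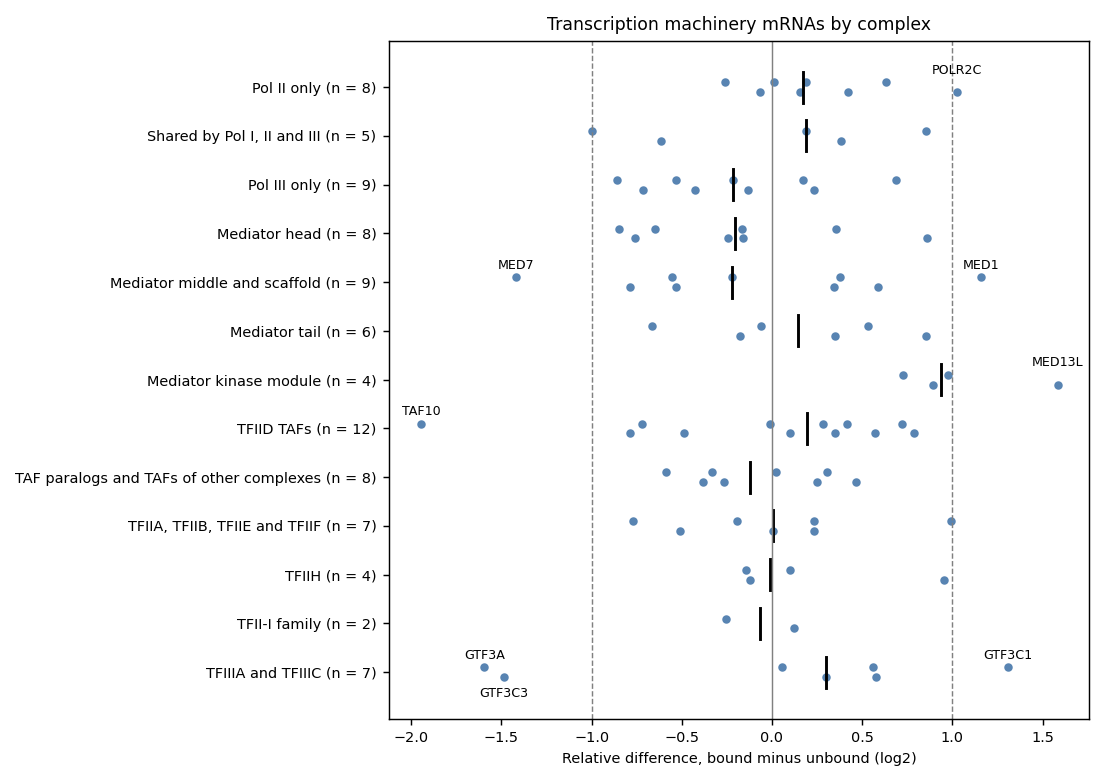
Relative difference of bound minus unbound RNA (log2, x axis) for the 89 members past the level filter, 1 point a gene, by complex (y axis), with the median of each complex as a black bar and 2-fold as dashed lines. The 4 MED genes of the Mediator kinase module lie right of 0 (median 0.94), and its kinases and cyclin are not plotted. TFIIIA and TFIIIC hold members beyond 2-fold on both sides.

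Both comparisons with total RNA share the total RNA array, and the pools were purified with a PureLink kit but the total RNA with RNeasy Plus, so source and kit cannot be told apart. Against total RNA, 0 of 89 members reached 2-fold on the higher side in bound RNA, beside 2.66% of all genes, and 5 were 2-fold lower (5.62%, against 6.41% of all genes). The median was -0.20 for members and -0.14 for all genes. As deposited the split was 31 higher (34.8%) and 0 lower, against 40.1% and 0.572% of all genes. Quantile normalization gave 1 and 2, against 3.24% and 3.42%, and lowess 1 and 3, against 3.22% and 3.68%.

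POLR3G was the lowest member for bound minus total RNA, with levels of 6.58 in bound and 5.74 in unbound RNA, against 7.27 in total RNA. Its relative differences were -1.72 (bound minus total) and -1.29 (unbound minus total), so that both pools were low. The paralog POLR3GL had 5.84 in bound and 4.71 in unbound RNA, against 4.53 in total RNA, with 0.28 and 0.41. As deposited POLR3G was lower in bound than in total RNA by a log2 difference of -0.69.

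POLR2B (-1.34 for bound and -1.36 for unbound minus total) and TAF5, the WD-repeat scaffold of TFIID (-1.07 and -1.42), were 2-fold lower in both pools too. TAF5 had levels of 7.24 in bound and 5.62 in unbound RNA, against 7.28 in total RNA. GTF3C3 (-1.25) and POLR3B (-1.18) were 2-fold lower in bound RNA only by this count, their unbound minus total values being 0.24 and -0.32. Of these 5, POLR3G and POLR3B stayed beyond 2-fold after quantile normalization, which gave POLR2B -0.77, GTF3C3 -0.91 and TAF5 -0.97. Lowess gave POLR2B -0.74 and GTF3C3 -0.93. The highest members for bound minus total were MED12L (0.94), MED13L (0.71) and MED8 (0.67).

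Against total RNA, 3 members were at least 2-fold higher in unbound RNA (3.37%, against 8.09% of all genes) and 9 were lower (10.1%, against 9.96%). The median was -0.18 for members and -0.07 for all genes. As deposited the split was 1 higher and 19 lower (21.3%), against 5.42% and 16% of all genes. After lowess it was 3 and 7, against 9.39% and 7.55%. MED8, a head subunit, had 7.29 in unbound and 6.0045 in total RNA, a relative difference of 1.52, and it was higher in bound RNA too (0.67). TAF10 (1.13) and MED7 (1.02) were the others higher in unbound RNA, with negative values for bound minus total (-0.81 and -0.40).

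GTF3C1 was furthest below total RNA in the unbound pool, at -2.12, with -0.81 in the bound pool. MED1 (-1.46), TAF5, POLR2B, POLR3G, POLR2A (-1.28), GTF2H5 (-1.07), POLR3A (-1.05) and MED24 (-1.01) completed the 9. The largest subunits of polymerase II and III were thus both 2-fold lower in unbound than in total RNA, although POLR3A came to -0.98 after quantile normalization, -0.88 after lowess and -0.97 with the stricter filter. MED24 also fell short of 2-fold under these settings (-0.84, -0.74 and -0.93), and GTF2H5 did so with the stricter filter (-0.99). For bound minus total they had -0.64 (POLR2A) and -0.82 (POLR3A).

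**Figure D3:**
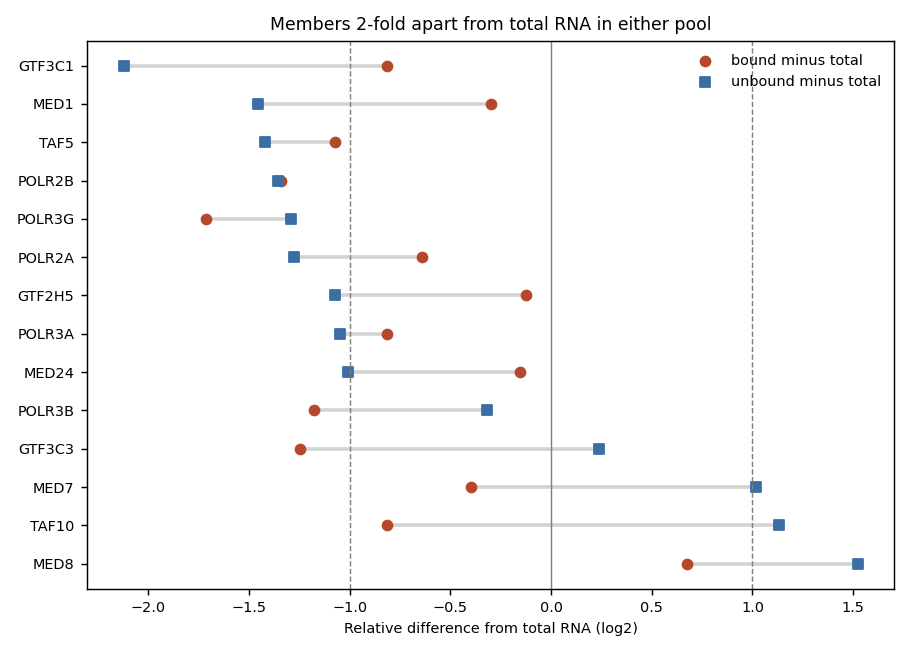
Relative difference from total RNA (log2, x axis) in bound RNA (circles) and unbound RNA (squares) for the 14 members 2-fold apart in either comparison (y axis), with 2-fold as dashed lines. POLR3G, POLR2B and TAF5 lie below -1 in both pools, and TAF10, MED7 and GTF3C3 have opposite signs in the pools.

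Paralog pairs were compared where both genes passed the filter, which held for 6 of 10 pairs. The gap between paralogs in bound minus unbound was widest for the SAGA subunit TAF6L against its TFIID relative TAF6 (-0.59 and 0.72, a gap of -1.31). MED13L exceeded MED13 by 0.69, TAF4B, a gonad-enriched relative, exceeded TAF4 by 0.45 (-0.27 and -0.72), and MED12L exceeded MED12 by 0.25. POLR3G was below POLR3GL by a gap of -0.29, and TAF5L (0.31) and TAF5 (0.35) had a gap of -0.04. For bound minus total the widest gap was that of POLR3G and POLR3GL, at -1.99, followed by TAF5L over TAF5, at 1.35.

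Members from longer genes lay further to the bound side in the comparison with unbound RNA. Genomic span, taken from RefSeq, had a Spearman correlation of 0.32 with bound minus unbound across the 89 members, and 0.21 across 11496 protein-coding genes, where genes share the arrays and are not replicates. The 25 members under 10 kb had a median of -0.26 and the 12 over 100 kb one of 0.38, against -0.33 and 0.10 for all genes of those classes. For bound minus total the correlation had opposite signs, -0.18 across members and 0.07 across all genes, and the members over 100 kb had a median of -0.10 and those under 10 kb one of -0.03. For unbound minus total the correlation was -0.46 across members and -0.15 across all genes. The 3 members 2-fold higher in unbound than in total RNA were all among the 25 under 10 kb (12%, against 12.1% of all genes of that class). Of the 9 lower ones, 8 were among the 28 members of 30 to 100 kb (28.6%, against 12.9% of all genes of that class). Another 1 was among the 24 members of 10 to 30 kb (4.17%, against 9.3%). None of the 12 members over 100 kb was 2-fold lower (0%, against 13.7%), so these counts did not rise steadily with span. Span includes introns and is not the length of the mRNA.

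**Figure D4:**
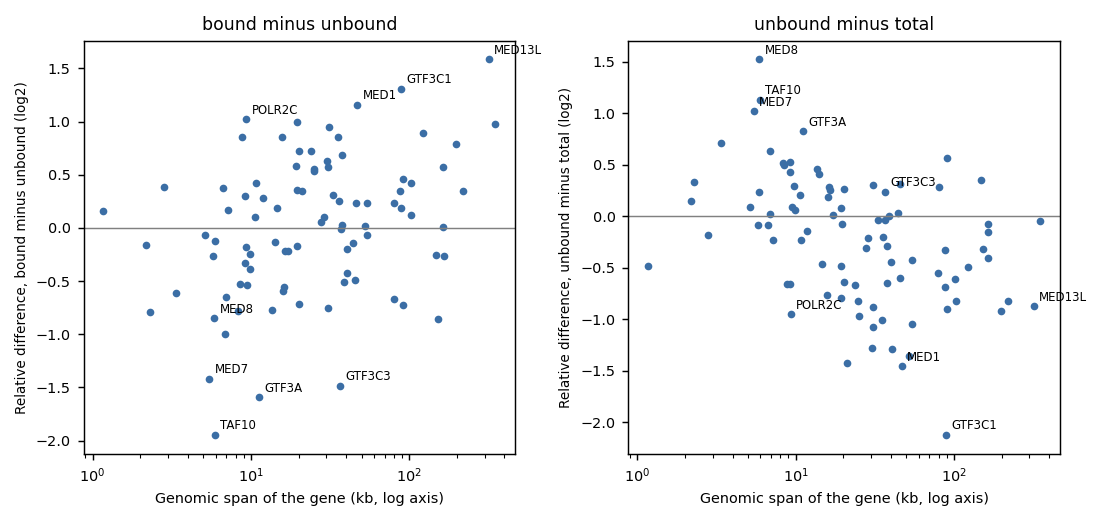
Relative difference (log2, y axes) of bound minus unbound (left) and unbound minus total (right) against genomic span in kb (log axis) for the 89 members, 1 point a gene. TAF10, MED7 and MED8 are short genes with high unbound values, and GTF3C1, MED1 and MED13L lie at the opposite side.

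Partners of these complexes that the symbol rule does not take were read from lists of related genes, whose counts stand beside 6.35% of all genes 2-fold higher and 9.91% 2-fold lower in bound RNA. Of 10 genes of TBP and polymerase III initiation, 1 was 2-fold higher in bound RNA and 0 lower (median -0.17), with BDP1, a TFIIIB subunit, at 1.89 and BRF2 at -0.87. Among 7 partners of Mediator and TFIIH, which include the TFIIH helicases ERCC2 and ERCC3 (0.08), 0 were higher and 2 lower (median -0.62). These were MNAT1 (-1.05) and CDK7 (-1.02), which form the TFIIH kinase with cyclin H, while the TFIIH helicase ERCC2 was highest at 0.59. Cyclin H itself (CCNH) had -0.69.

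Of 29 pause release and elongation genes, 4 were 2-fold higher and 1 lower (median 0.09), from ELOB (-1.10), an elongin subunit, to the pausing factor NELFB (1.36). Polymerase I genes had 0 higher and 4 lower of 11 (median -0.47), from TAF1D (-1.88) to UBTF (0.70). Assembly and tail-modifying factors had 0 higher and 2 lower of 14 (median -0.13), from the tail phosphatase SSU72 (-1.45) to GPN3 (0.79).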

How the data were processed

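Gene expression was measured in polysome-bound, polysome-unbound and total RNA of H9 cells, with 1 array each. Values are log2 levels as the authors deposited them, 1 for each probe set and array. RMA and Partek 6.5 are the tools given in the submitters' processing notes. The sources used here do not say how polysomes were separated. The bound array's 33297 values carry 7 decimals with a common ending, against at most 5 on the other arrays, so its scaling is not known. A constant added to one array would cancel in relative differences.

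Probe sets were named from the platform annotation held by GEO: 19460 list 1 symbol, 1754 several and 12083 are not listed. Gene IDs of 19429 matched RefSeq (GRCh38.p14), and 0 symbols changed. For the 769 genes with several probe sets, the brightest on average was used. Genes with a mean over the arrays above 3.84, the 95th percentile of that mean over the tissue-restricted genes, entered the comparisons. An array's offset is the difference of array medians over those genes.

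The members, complexes and related lists were chosen with earlier results of these data known. Named with values were members 2-fold apart, the extremes of each complex, the 3 highest and lowest against total RNA, paralog pairs and a fixed set of subunits. CDK7, CDK19 and CCNC, some further members of split complexes and the cell markers were named after their values were seen. Scripts were tested on simulated arrays with planted changes. Python 3.11.15, numpy 2.4.6, pandas 2.3.3, scipy 1.17.1, statsmodels 0.14.6 and matplotlib 3.10.9 were used.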

Additional observations from a re-analysis of the deposited data

How the results depend on the processing

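No paired analysis was possible because each group has 1 array and the result comes from no test. For bound minus unbound, the counts of members 2-fold higher and lower (4 and 4) became 63 and 0 as deposited and 11 and 4 after quantile normalization. They were 7 and 4 with no level filter (beside 5.29% and 5.68% of all genes), 17 and 17 at 1.5-fold, and 0 and 2 at 3-fold. Shares of all genes were not computed at 1.5-fold and 3-fold. For bound minus total (0 and 5) they were 31 and 0 as deposited and 1 and 2 after quantile normalization. Lowess (span 0.3) gave 1 and 3. With the filter at the 99th percentile of background they were 1 and 4, beside 3.59% and 6.02% of all genes. They were 3 and 15 at 1.5-fold, and 0 and 1 at 3-fold. For unbound minus total (3 and 9) they were 1 and 19 as deposited, 6 and 28 at 1.5-fold, and 0 and 1 at 3-fold. The member median (0.05, -0.20 and -0.18 for bound minus unbound, bound minus total and unbound minus total) was 1.32, 0.83 and -0.42 as deposited. Quantile normalization gave 0.22 and -0.055 for the first pair of these comparisons, lowess -0.084 and -0.028 for those with total RNA, and the stricter filter -0.10 for bound minus total. The member median minus that of all genes went to 0.35 (bound minus unbound) and 0.11 (bound minus total) with no filter, against 0.12 and -0.06, since dim genes then enter. This summary was added after the data were seen. The mean of all probe sets, and genes with 1 probe set, kept all of these counts within 1.5 times. Only 3 members have several probe sets, so these settings act on the members mainly through the offset and test little. No member 2-fold apart changed direction under any scaling, filter or probe set rule that was run. The correlation with span stayed between 0.31 and 0.33 for bound minus unbound, -0.18 and -0.17 for bound minus total, and -0.46 and -0.44 for unbound minus total; the alternatives to it were added after the data were seen. The medians of the middle Mediator subunits, the TAF paralogs, TFIIH, the TFII-I family and the small group of TFIIA, TFIIB, TFIIE and TFIIF changed sign under at least 1 alternative besides the deposited scale. Span replaced the planned protein length, which was not run because no protein table was at hand.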
